A study of Mus musculus with 4 samples.

Results

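Amino acid and neurotransmitter transporters are membrane proteins of the solute carrier families Slc1, Slc6, Slc7, Slc36, Slc38 and Slc43, together with Slc3a2, the partner subunit of several Slc7 proteins. The members were all probe sets whose gene symbol belonged to these families or was Slc3a2, apart from 1 Slc38 gene that is not analysed here. This gave 64 probe sets of 22626 and 41 genes of 12393, none of them from Slc36. They were compared between mouse embryonic fibroblasts labelled Med1-/- p53-/- and fibroblasts labelled Med1+/+ p53-/-, each on 2 Affymetrix 3' arrays. The Med1 protein is part of Mediator, through which transcription factors on DNA act on RNA polymerase II. Both genotypes lacked p53, were C57BL/6J by strain and came from embryos at embryonic day 10.0, and per the labels a single cross yielded both. The cells grew in medium with 10% serum. Whether both arrays of 1 genotype stem from separate cultures is not in the labels. The p-values therefore cover no more than the spread among these 4 samples, possibly a technical one, and an effect of Med1 loss cannot be told apart from any other difference between the 2 sources of cells.

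Cells import amino acids through carriers that either couple uptake to ion gradients or exchange an amino acid inside for one outside. The heteromeric exchangers consist of a light chain of the Slc7 family, which carries out transport, and a heavy chain such as Slc3a2 (CD98, 4F2hc), which brings the light chain to the plasma membrane. Slc38 and Slc1 carriers load cells with glutamine and other small neutral amino acids, and Slc6 carriers take up glycine, taurine, creatine and, in neurons, neurotransmitters. When amino acids run short, the transcription factor Atf4 is known to raise several of these transporter genes together with amino acid synthesis genes.

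The deposited linear signals were not on a common scale, with array medians of 36.1 and 51.4 on the Med1-/- arrays, against 76.25 and 106.65 on the Med1+/+ arrays. Arrays were therefore quantile normalised, and every change below is on the log2(normalised signal + 1.7) scale, so it stands relative to the rest of the array. The scale understates the change of dim genes. Med1 itself fell by 3.57 on the log2 scale, in the direction of the labels. Of the fibroblast and mesenchyme markers 12 of 13 were bright enough to test, 5 of them higher and 4 lower, with a summed normalised signal of 43903 to 45990.1 on the Med1-/- arrays and 41316 to 44132 on the Med1+/+ arrays. Their log2 changes ran from -2.95 (Pdgfra) to 1.98 (Col1a1), with a median of 0.07, so similar sums do not mean that each marker was alike. The summed signal of 11 muscle markers was 30770 to 32339 on the Med1-/- arrays and 13703 to 14073 on the Med1+/+ arrays. Of these 6 were tested and 6 were higher, with a median log2 change of 3.93. That sum for 13 epithelial markers was 2456 to 2810 on the Med1-/- arrays and 5125 to 5270 on the Med1+/+ arrays. Of the 7 tested, 5 were lower and 1 was higher, with a median of -3.92. The higher one, Krt19 (1.61), was the brightest of the 7 on the Med1-/- arrays. Of all features 39.1% were higher and 36.2% lower. The part of these other cell type markers in the transporter results was not tested. In bulk samples fewer cells of a type and less RNA per cell cannot be told apart.

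Slc7a5 and Slc3a2, the subunits of the leucine exchanger LAT1, were both higher in Med1-/- cells. So were the glycine transporter gene Slc6a9 and the creatine transporter gene Slc6a8. In the values as deposited Slc6a8 changed sign on its brighter probe set but stayed higher on the other. The taurine, glutamine and nucleobase transporter genes Slc6a6, Slc38a2 and Slc43a3 were lower. Of the 41 genes, 15 had a mean log2 value above the expression filter (4.98), and each of the 15 did so in both genotypes. At a threshold of 0.05 on the adjusted p, 7 of the 15 were higher in Med1-/- cells, 3 were lower and 5 were not called (limma with Benjamini-Hochberg adjustment over all 8923 features). Higher calls thus made up 46.7% of the tested transporter genes and 39.1% of all features, and lower calls 20% and 36.2%. Most expressed genes differed between the genotypes, 75.3% of all features being called in either direction, so 10 calls among 15 genes do not set the transporters apart. At least 2-fold changes numbered 4 higher and 1 lower, against 21.2% and 19.2% of all features. The median change of the 15 was 0.41, against 0.09 for all features, a gap of 0.32 that was 0.12 to 0.13 under the 3 other scalings, where 17 transporter genes passed the filter. In 13 of the 15 both arrays of one genotype lay beyond both arrays of the other, and this was so for 88.2% of all features.

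**Figure D1:**
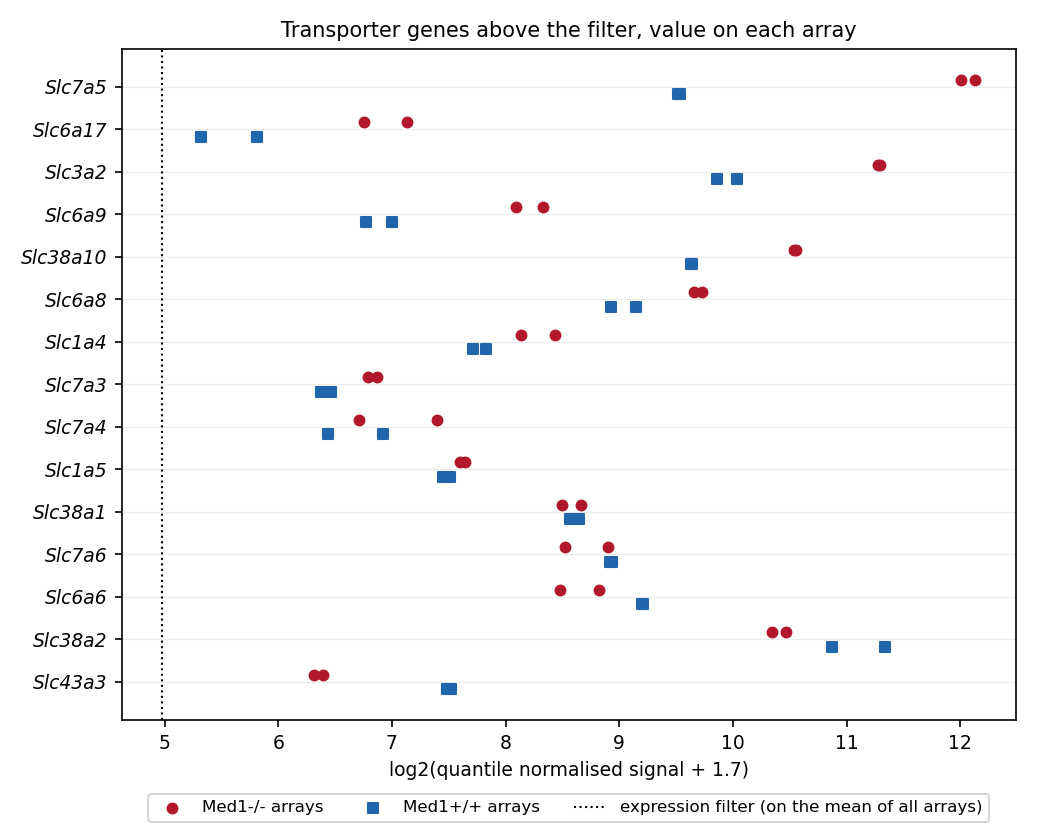
Normalised log2 signal (horizontal axis) of each transporter gene above the filter, with 1 point per array, Med1-/- arrays as circles and Med1+/+ arrays as squares. The groups lie furthest apart for Slc7a5 and overlap for Slc38a1 and Slc7a4.

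The direction of the smaller changes depended on how the arrays were scaled. The median change of all features was 0.09 after quantile normalisation, 0.30 with array medians set equal, 0.11 with 75th percentiles set equal and -0.76 in the values as deposited. In the values as deposited 6.45% of the calls over all features were higher, against 51.9% after quantile normalisation. There 17 transporter genes passed the filter, of which 1, Slc7a5, was called higher (2.97% of all features) and 6 were called lower (43.1% of all features).

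**Figure D2:**
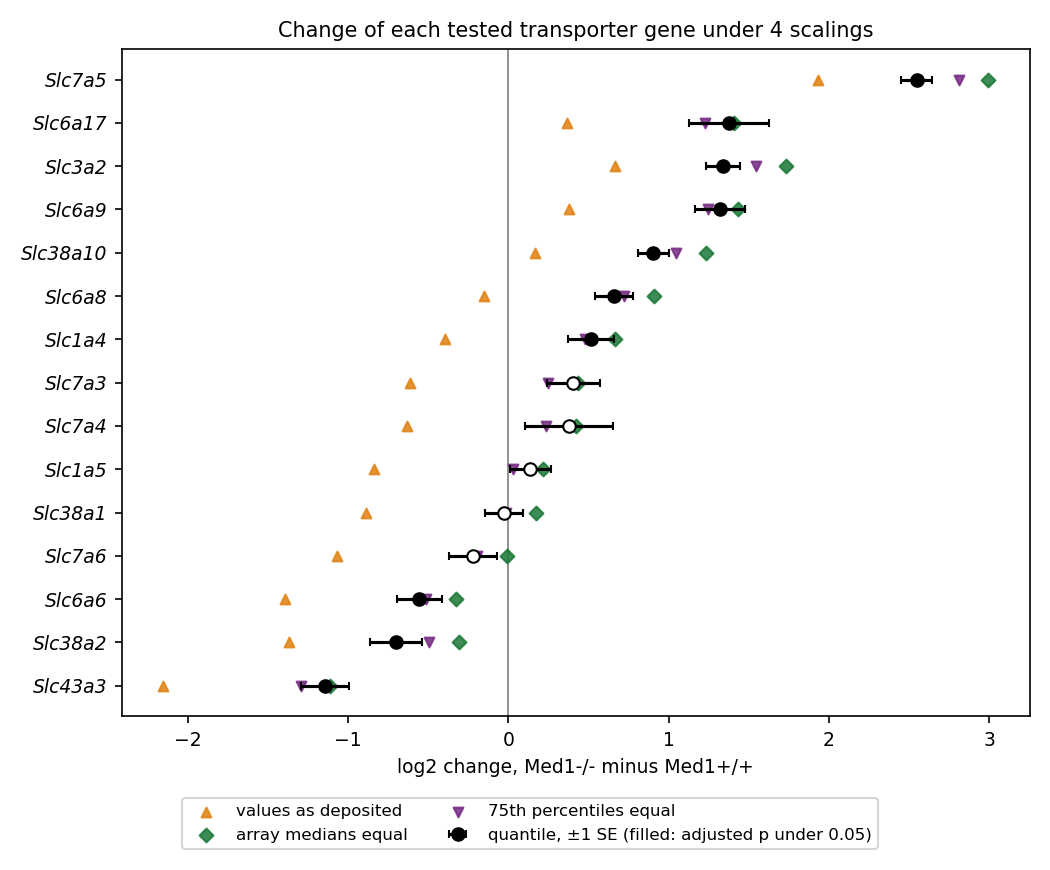
Log2 change, Med1-/- minus Med1+/+ (horizontal axis), of each tested transporter gene. Circles with bars of 1 SE are the quantile normalised values, filled where the adjusted p was under 0.05, and the other symbols give the other 3 scalings. Slc7a5, Slc3a2, Slc6a9, Slc6a17 and Slc38a10 lie right of 0 under all 4, and of these only Slc7a5 was called higher in the values as deposited. The values as deposited lie left of the others for every gene.

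Slc7a5, which encodes LAT1, the light chain that imports leucine and other large neutral amino acids in exchange for glutamine, had the largest change of the tested transporter genes. On its single probe set (gene on chromosome 8 of GRCm38.p6, bases 121881146 to 121907686), deposited signals were 3048.1 and 4054.8 on the Med1-/- arrays, against 780.5 and 1085.3 on the Med1+/+ arrays. After normalisation the log2 signal averaged 12.07 ± 0.090 in Med1-/- cells and 9.52 ± 0.013 in Med1+/+ cells (SD, n = 2 each). The log2 change was 2.55 (SE 0.098; adjusted p = 3.15e-05, limma), or 5.85-fold. It ranked 47th among the rises of all 8923 features, so 0.527% of features rose as much or more. Both Med1-/- arrays were above both Med1+/+ arrays even before any scaling, and the change was at least 1.93, and called, under all 4 scalings.

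Slc3a2, the heavy chain that Slc7a5 and other light chains need, rose by less. On its single probe set (gene on chromosome 19, bases 8706882 to 8723369), deposited signals were 1605.6 and 2379.4 on the Med1-/- arrays, against 1101.9 and 1373.9 on the Med1+/+ arrays. The normalised log2 signal averaged 11.29 ± 0.0092 in Med1-/- cells and 9.95 ± 0.13 in Med1+/+ cells (SD, n = 2 each). The log2 change was 1.34 (SE 0.11; adjusted p = 6.73e-05, limma), a 2.53-fold difference, and 11.3% of all features rose as much or more. Without scaling the change was 0.67 and was not called (adjusted p = 0.213, limma), although the groups still did not overlap.

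Of the other light chain genes 1 was bright enough to test. Slc7a6, whose product y+LAT2 exchanges cationic for neutral amino acids, had normalised signals of 475.5 and 365.0 on the Med1-/- arrays, against 489.2 and 481.3 on the Med1+/+ arrays. Its log2 change of -0.22 (SE 0.15) was not called (adjusted p = 0.215, limma), but a second, dimmer probe set changed by -0.40 (adjusted p = 0.0242, limma with every probe set above the filter tested by itself). With the mean of both probe sets Slc7a6 was called lower (-0.31; adjusted p = 0.043, limma). It was also called lower without Med1-/- replicate 1 (-0.41) and in the values as deposited (-1.07), whereas the change was -0.029 without Med1-/- replicate 2. The remaining 7 light chain genes on the array were under the filter. Slc7a11, the cystine and glutamate exchanger xCT, had deposited signals of 9.5 and 16.7 on the Med1-/- arrays, against 7.7 and 26.4 on the Med1+/+ arrays. Slc7a7, the y+LAT1 gene, had 11.6 and 15.1 on the Med1-/- arrays, against 11.3 and 23.6 on the Med1+/+ arrays. For both genes the groups overlapped. Slc7a8 (LAT2), Slc7a9, Slc7a10, Slc7a12 and Slc7a13 had no deposited signal above 13.1 on their brightest probe sets.

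Promoter sequences from RefSeq (GRCm38.p6) were matched for 26 of the 41 genes, as 43 windows of 300 bases that run from 250 bases before to 50 bases after a transcript start. They were searched on both strands for TGATGNAA, the core of the amino acid response element that Atf4 and its partners are known to bind. The motif was in 4 of the 43 windows (9.3%) and in 1304 of 32851 windows of all genes (3.97%). These shares count windows, of which a gene can have several, and Slc7a7 gave 2 of the 4 from its 5 windows. The share of all genes with the motif was not computed. The 4 belonged to 3 genes, Slc1a4, Slc7a11 and Slc7a7, of which only Slc1a4 was bright enough to test. Of the 15 tested genes 7 were matched to a window. Slc7a5 was not among them, so its promoter was not searched. The windows of 3 genes are given in lower case with the motif in capitals. Slc1a4 rose after quantile normalisation and holds a match at bases 247 to 254 of its window. Slc3a2 rose and its window holds none. Slc7a11 was dim and its window holds matches at bases 185 to 192 and 204 to 211. The windows are chr11:20332664-20332963, chr19:8713848-8714147 and chr3:50443564-50443863, all on the minus strand and all read 5′ to 3′. Those of Slc3a2 and Slc7a11 lie inside the annotated genes, whose 5′ ends are at bases 8723369 and 50499087. Starts at those ends were not searched. A match is a stretch of letters, and factor binding was not measured here.
Slc1a4: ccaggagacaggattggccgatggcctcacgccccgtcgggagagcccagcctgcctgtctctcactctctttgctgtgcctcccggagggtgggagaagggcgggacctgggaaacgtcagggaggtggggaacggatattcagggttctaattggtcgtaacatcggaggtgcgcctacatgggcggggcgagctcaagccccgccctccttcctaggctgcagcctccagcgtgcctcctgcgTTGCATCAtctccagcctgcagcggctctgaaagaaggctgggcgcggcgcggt
Slc3a2: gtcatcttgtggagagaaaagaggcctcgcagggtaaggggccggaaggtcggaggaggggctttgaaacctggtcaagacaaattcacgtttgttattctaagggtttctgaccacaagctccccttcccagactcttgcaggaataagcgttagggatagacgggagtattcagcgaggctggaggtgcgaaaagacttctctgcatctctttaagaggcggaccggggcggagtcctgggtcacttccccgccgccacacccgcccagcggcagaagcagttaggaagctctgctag
Slc7a11: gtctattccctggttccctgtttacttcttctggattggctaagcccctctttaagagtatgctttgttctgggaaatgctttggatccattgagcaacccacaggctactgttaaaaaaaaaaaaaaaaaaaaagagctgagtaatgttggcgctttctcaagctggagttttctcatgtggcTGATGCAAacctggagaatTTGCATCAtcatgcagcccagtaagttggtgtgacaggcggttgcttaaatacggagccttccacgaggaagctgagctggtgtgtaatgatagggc

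Slc6 genes formed the largest group, with 15 genes on the array and 4 tested, 3 higher and 1 lower after quantile normalisation, where 75.3% of all features were called in either direction. Slc6a9, the glycine transporter GlyT1, had deposited signals of 182.8 and 221.8 on the Med1-/- arrays, against 140.3 and 170.2 on the Med1+/+ arrays. The groups did not overlap before scaling, and after it the log2 signal averaged 8.21 ± 0.17 in Med1-/- cells and 6.89 ± 0.16 in Med1+/+ cells (SD, n = 2 each). The log2 change was 1.32 (SE 0.16; adjusted p = 0.000289, limma), and a second probe set changed by 1.91. Without any scaling the change of Slc6a9 was 0.38 and not called.

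Slc6a8, which imports creatine, rose on both of its probe sets, but by unequal amounts. The brighter had normalised signals of 849.0 and 806.4 on the Med1-/- arrays, against 485.5 and 565.6 on the Med1+/+ arrays, which is a log2 change of 0.66 (SE 0.12; adjusted p = 0.00214, limma). The other changed by 1.83 (SE 0.15; adjusted p = 0.000148, limma with every probe set above the filter tested by itself). Without the Med1+/+ replicate 2 array the second probe set became the brighter, and the change of the gene was then 1.64. On the deposited scale the brighter probe set changed by -0.15 and was not called. The other had deposited signals of 657.7 and 869.7 on the Med1-/- arrays, against 355.7 and 389.8 on the Med1+/+ arrays, without overlap.

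Slc6a17, a transporter of neutral amino acids known from synaptic vesicles, was dim and higher in Med1-/- cells. Before scaling the groups overlapped, with 57.2 on the dimmer Med1-/- array and 61.5 on the brighter Med1+/+ array. After normalisation the signals were 106.3 and 139.0 in Med1-/- cells, against 54.6 and 38.4 in Med1+/+ cells, without overlap, and the log2 change was 1.38 (SE 0.25; adjusted p = 0.00216, limma). As deposited, it was 0.37 and not called. Beside it, the summed normalised signal of 15 neural and glial markers was 1177 to 1199 on the Med1-/- arrays and 510 to 528 on the Med1+/+ arrays. Of these markers 3 were tested and 2 rose, Nes by 2.08 and Tubb3 by 1.84, while 11 of the 15 had no deposited signal of 30 or more. Their part in the change of Slc6a17 was not tested.

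Slc6a6, the taurine transporter, was the lower gene of the tested Slc6 group. Its normalised signal was 449.6 and 354.4 on the Med1-/- arrays, against 585.2 and 589.3 on the Med1+/+ arrays. The log2 change was -0.55 (SE 0.14; adjusted p = 0.0097, limma). With array medians set equal it was -0.33 and no longer called (adjusted p = 0.0617, limma).

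Among Slc38 genes, which encode sodium-coupled transporters of glutamine, alanine and related amino acids, 1 rose, 1 fell and 1 was not called. Slc38a10, a less studied member, had normalised signals of 1500.0 and 1480.9 on the Med1-/- arrays, against 796.6 and 793.0 on the Med1+/+ arrays. The replicates lay close together and the log2 change was 0.91 (SE 0.096; adjusted p = 0.000189, limma). Of its 7 probe sets 6 passed the filter, with changes of 0.59 to 1.20, and 5 of these 6 were called higher when each was tested by itself. As deposited, the change was 0.17 and not called.

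Slc38a2, the SNAT2 gene, is known to be raised by Atf4 when amino acids are short. Here it was lower, while Slc7a5 and Slc3a2 were higher, and the part of Atf4 in these changes was not tested. Deposited signals were 799.5 and 1280.0 on the Med1-/- arrays, against 1890.4 and 3626.8 on the Med1+/+ arrays, with no overlap. The log2 change was -0.70 (SE 0.16; adjusted p = 0.00635, limma). It was -0.47 without the Med1+/+ replicate 2 array, and -0.31 and not called with array medians set equal (adjusted p = 0.125, limma). Slc38a1, the SNAT1 gene, had normalised signals of 404.5 and 358.4 on the Med1-/- arrays, against 398.8 and 378.1 on the Med1+/+ arrays, and its groups overlapped (log2 change -0.03, SE 0.12; adjusted p = 0.837, limma).

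Of the neutral amino acid exchangers of the Slc1 family 1 was called and 1 was not, and neither kept its sign in the values as deposited. Slc1a4, the serine and alanine exchanger ASCT1, had normalised signals of 279.4 and 344.5 on the Med1-/- arrays, against 208.0 and 225.3 on the Med1+/+ arrays. The log2 change was 0.52 (SE 0.15; adjusted p = 0.0153, limma). The call was lost without Med1-/- replicate 2 (0.37), without Med1+/+ replicate 1 (0.46) and with the mean of its 3 probe sets (0.36), and in the values as deposited the change was -0.40. Slc1a5, the glutamine transporter ASCT2, changed by 0.14 (SE 0.13) and was not called (adjusted p = 0.354, limma). Its normalised signal was 191.8 and 198.4 on the Med1-/- arrays, against 173.3 and 181.1 on the Med1+/+ arrays.

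Slc43a3, which belongs to a family of branched-chain amino acid transporters but is itself known to carry purine nucleobases, had the largest fall of the tested genes. Deposited signals were 41.8 and 63.3 on the Med1-/- arrays, against 196.3 and 281.9 on the Med1+/+ arrays. The normalised log2 signal averaged 6.36 ± 0.058 in Med1-/- cells and 7.50 ± 0.022 in Med1+/+ cells (SD, n = 2 each), a log2 change of -1.15 (SE 0.15; adjusted p = 0.000453, limma). Slc43a3 was called lower under all 4 scalings, with changes of -2.16 to -1.11.

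Slc7a3 and Slc7a4, grouped here by family with the cationic amino acid transporters, were not called. Slc7a3 had normalised signals of 108.7 and 115.0 on the Med1-/- arrays, against 86.6 and 81.5 on the Med1+/+ arrays, which is a log2 change of 0.41 (SE 0.16; adjusted p = 0.0586, limma). With the mean of all probe sets of each gene the change of Slc7a3, which has a single probe set, stayed at 0.41 but was called higher (adjusted p = 0.0494, limma). It was also called higher without the intensity trend (adjusted p = 0.0239, limma). Slc7a4 had 167.0 and 102.8 on the Med1-/- arrays, against 119.2 and 84.8 on the Med1+/+ arrays, and its groups overlapped (log2 change 0.38, SE 0.27; adjusted p = 0.245, limma). The change of Slc7a4 was 0.72 and called without Med1-/- replicate 2, but 0.032 without Med1-/- replicate 1 and 0.14 without Med1+/+ replicate 2, neither of them called.

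The other 26 genes were under the filter, and for 23 of them no deposited signal on the brightest probe set exceeded 26.5 on any array. These 23 included the transporters of noradrenaline (Slc6a2), dopamine (Slc6a3) and serotonin (Slc6a4), the arginine transporter gene Slc7a1 and the glutamate transporter genes Slc1a1, Slc1a2 and Slc1a6. The file holds no detection call, so a dim signal cannot be told apart from none. Without the filter, 3 of the 26 passed the test, 1 higher and 2 lower, where 23.7% and 22.7% of all features were called higher and lower.

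The 2 lower genes were dim only in Med1-/- cells. Slc6a15, a transporter of proline and branched-chain amino acids known mainly from neurons, had deposited signals of 6.3 and 2.8 on the Med1-/- arrays, against 136.4 and 203.7 on the Med1+/+ arrays. Its log2 change without the filter was -4.05 (SE 0.50; adjusted p = 0.000951, limma). Slc1a3, the glutamate transporter GLAST known from astrocytes, had 6.4 and 10.3 on the Med1-/- arrays, against 73.9 and 129.8 on the Med1+/+ arrays, which is a log2 change of -2.52 (SE 0.36; adjusted p = 0.00174, limma without the filter). Of the other 2 Slc1a3 probe sets, the brighter had 1.0 and 1.5 on the Med1-/- arrays, against 32.7 and 89.6 on the Med1+/+ arrays, and the dimmer had no deposited signal above 3.9. The size of both changes is inexact, because the Med1-/- signals lay near the pseudocount. Slc6a4 was called higher without the filter at signals of 6.3 and 9.5 on the Med1-/- arrays, against 1.4 and 3.2 on the Med1+/+ arrays. The third gene that was not uniformly dim, the cationic transporter gene Slc7a2, had 11.8 and 27.3 on the Med1-/- arrays, against 28.8 and 47.8 on the Med1+/+ arrays, and was not called without the filter (log2 change -0.08; adjusted p = 0.897, limma).

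**Figure D3:**
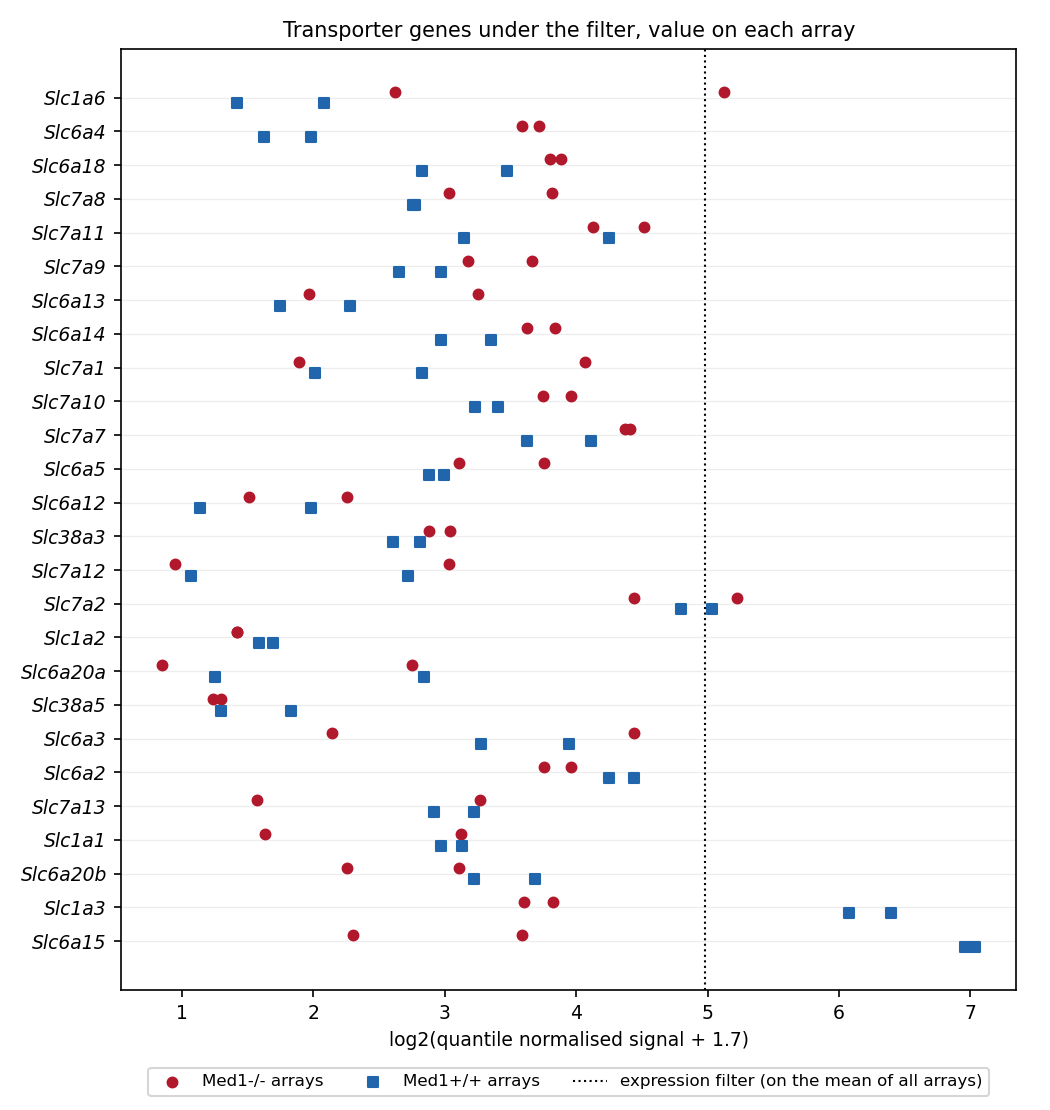
Normalised log2 signal (horizontal axis) of the 26 transporter genes under the filter on their brightest probe sets, with 1 point per array, Med1-/- arrays as circles and Med1+/+ arrays as squares. For Slc6a15 and Slc1a3 both Med1-/- arrays lie left of the dotted filter line of 4.98 and both Med1+/+ arrays right of it.

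Genes that act with the transporters were described from 7 lists by counts and medians, beside a median of 0.09 for all features. Of all features 39.1% were higher and 36.2% lower after quantile normalisation, and 2.97% were higher and 43.1% lower in the values as deposited. In the list of serine, glycine and glutamine metabolism, 10 of 18 tested genes were higher and 2 lower, with a median of 0.52. Its largest changes were those of Shmt2 (2.04), the mitochondrial enzyme that makes glycine from serine, Bcat1 (1.27), which starts branched-chain amino acid breakdown, Phgdh (1.23), the first enzyme of serine synthesis, and Got2 (1.19), the mitochondrial aspartate aminotransferase gene. Without scaling 2 genes of this list were called higher and 2 lower.

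The genes of Atf4 and the amino acid deprivation response moved both ways, with 15 higher and 11 lower of 29 tested, against 39.1% higher and 36.2% lower of all features, and a median of 0.51. The largest changes were those of Eif2ak2 (-2.56), an interferon-induced kinase of the initiation factor eIF2, Atf5 (2.32), a transcription factor translated under stress, Sesn2 (1.85), a leucine sensor upstream of mTORC1, and Eif2ak1 (1.54), the heme-regulated eIF2 kinase gene. Chosen after their values were seen, Atf4 itself changed by 0.51, the asparagine synthetase gene Asns by 0.92, and Ddit3, which encodes the stress factor CHOP, by -1.53. In the values as deposited 1 gene of the list was called higher and 13 lower, against 2.97% and 43.1% of all features.

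The other lists had medians of -0.27 to 1.22. Of the other amino acid and vesicular transporters 9 genes were on the array and 3 tested. The lysosomal histidine and peptide transporter gene Slc15a4 (1.62) and the lysosomal cationic amino acid exporter gene Slc66a1 (1.22) were higher. The cystine exporter gene Ctns (-0.89) was lower. As deposited, 0 of the 3 were called higher and 1 was called lower. Among 20 genes of amino acid sensing by mTORC1 8 were higher, including Nprl3 (1.49) and Tfeb (1.22), and 7 lower, including Sesn3 (-1.62), shares near the 39.1% and 36.2% of all features, and as deposited 0 were higher and 7 lower. Among 14 genes of cystine use and glutathione synthesis 7 were higher, including Ggt7 (1.45), Cbs (1.39) and Keap1 (0.94), and 2 lower, including Nqo1 (-1.60). Ggt7 and Cbs averaged 4.83 and 4.40 on the log2 scale in Med1+/+ cells, under the filter (4.98). They passed it only through the Med1-/- arrays. As deposited 0 genes of this list were higher and 5 lower, and with 75th percentiles set equal 8 were higher and 4 lower. Of 10 partners and regulators of the transporters 2 were higher, Stx1a (1.51) and Nedd4l (1.50), a gene of a ubiquitin ligase known to remove transporters from the membrane, and 3 lower, including Sgk3 (-1.69) and Nedd4 (-1.58). Sgk3 averaged 4.23 in Med1-/- cells, under the filter, and passed it only through the Med1+/+ arrays (SE 0.62; adjusted p = 0.0427, limma). With array medians set equal 6 of these partners were higher, and with 75th percentiles set equal 5, while as deposited 0 were higher and 4 lower. In the mTORC1, cystine and partner lists 0 genes were likewise higher as deposited by limma at an unadjusted p under 0.05, and 8, 5 and 4 were lower. Of 6 genes of neurotransmitter and creatine metabolism the creatine kinase gene Ckb (2.01) was higher and 3 were lower, the monoamine oxidase gene Maoa (-1.22), the creatine synthesis gene Gatm (-1.15) and Aldh7a1 (-0.31). Gatm averaged 4.91 in Med1-/- cells, also under the filter, and passed it only through the Med1+/+ arrays.

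**Figure D4:**
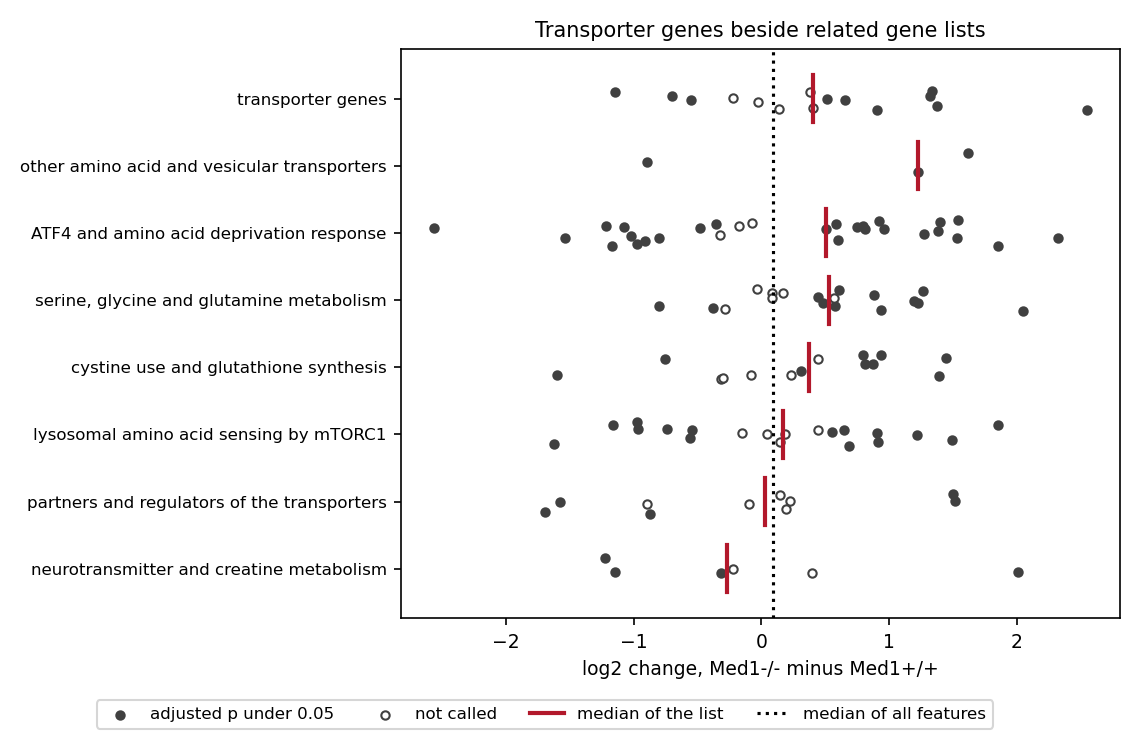
Log2 change, Med1-/- minus Med1+/+ (horizontal axis), of the tested transporter genes and of the tested genes of 7 related lists, with 1 point per gene, filled where the adjusted p was under 0.05. Vertical bars mark list medians, which run from -0.27 to 1.22, and the dotted line marks the median of all features at 0.09.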

How the data were processed

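Total RNA from 4 samples, 2 labelled Med1-/- p53-/- and 2 labelled Med1+/+ p53-/-, was measured, each on its own array; per the labels' protocols 50 ng went into in vitro transcription with biotin. The authors deposited a linear intensity for each probe set on each array, and the sources used here do not give how probes were summarised or scaled. The 64 control probe sets were left out. Probe sets were named from GEO's platform annotation, with Entrez identifiers looked up in RefSeq (GRCm38.p6) for current symbols: 20380 probe sets had 1 symbol, 691 several and 1555 none.

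Intensities were quantile normalised and logged as log2(value + 1.7), where 1.7 is the table's 10th percentile. A filter at the 40th percentile of mean log2 values removed 9050 probe sets, and the brightest probe set stood for a gene. Genotypes were compared by the two-sided moderated test of limma 3.58.1 (R 4.3.3), letting the prior variance follow mean intensity, with p-values adjusted by Benjamini-Hochberg over 8923 features, a threshold of 0.05, and 2 residual and 4.71 prior degrees of freedom. The number of arrays limits the precision. Members, gene lists and marker lists were chosen with earlier results of these data known. Values on each array are given for members called with at least a 2-fold change and for Slc3a2 and its light chains, and for the other tested members as well. Of each list up to 4 called genes with the largest change are named, fewer in some lists. The procedure was tested on simulated data in which few probe sets changed, in both directions. Such data cannot show how the scaling performs where most features differ, as they did here. Alternatives varied the scaling, filter, pseudocount, probe set choice, variance model, replicate block, arrays and thresholds. Python 3.11.15 and matplotlib 3.10.9 drew the figures.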

Additional observations from a re-analysis of the deposited data

How the results depend on the processing

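The counts of 7 transporter genes higher and 3 lower in Med1-/- cells were recomputed under 18 alternatives. The count of higher genes was 1 in the values as deposited and 4 with at least a 2-fold change, and 6 to 8 under each of the other alternatives. The count of lower genes was 6 in the values as deposited, 5 with 75th percentiles set equal, 5 without a filter, 5 with a pseudocount of 16 and 4 without probe sets of the _s_at, _x_at and _a_at kinds, in each case with Slc1a3 and Slc6a15 among them. It was 2 with a filter at the 60th percentile and 1 with at least a 2-fold change. With the mean of all probe sets of a gene it was 3, with Slc7a6 called lower, while Slc6a6 came under the filter and was not tested. Leaving out an array gave 6 to 7 higher and 3 to 6 lower; without Med1-/- replicate 1 there were 6 lower and without Med1-/- replicate 2 there were 5, again with Slc1a3 and Slc6a15 among them. Over all features 3490 were called higher and 265 in the values as deposited, and at least 2-fold changes numbered 1890 higher and 1715 lower, against 3490 and 3232 calls. Of 232 changes of the tested transporter genes under the alternatives 209 kept their direction and side of the threshold, 9 lost and 6 gained a call, and 8 changed sign. In the values as deposited the sign changed for Slc1a4 (-0.40), Slc1a5 (-0.84), Slc6a8 (-0.15), Slc7a3 (-0.61) and Slc7a4 (-0.63), where the median of all features was -0.76. For Slc6a8 this was on the brighter probe set only. For Slc38a1, which was not called, it changed with array medians set equal (0.17), and leaving out an array gave -0.11 to 0.059, above 0 without Med1-/- replicate 2 and without Med1+/+ replicate 1. With array medians set equal 3 genes were again lower, but Slc38a2 and Slc6a6 lost the call while Slc1a3 and Slc6a15 gained it. Slc3a2 and Slc6a6 could not be tested without probe sets of the _s_at, _x_at and _a_at kinds, since they had no other above the filter. The cause of the scaling differences was not tested. With the replicate number as a block the transporter counts stayed at 7 and 3, and all features gave 3825 higher and 3500 lower; arrays of the same number deviated together (correlation 0.27 over features), but with 2 numbers this does not show that they pair the samples. Signal near the pseudocount limits the size of changes of dim genes such as Slc6a15, Slc1a3 and Slc6a4.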
